A study of Mus musculus with 16 samples.

Results

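The genes described here were 51 genes of central carbon metabolism, taken from a table of 13832 genes by their symbols. Glycolysis and transport had 22 of them, the pentose phosphate pathway 7, and pyruvate dehydrogenase with the tricarboxylic acid (TCA) cycle 22. The 51 symbols were all in the table, and 50 passed the minimum for testing, a count of 10 or more in 4 or more of the 8 libraries of each material. The exception was Ldhb, the heart-type lactate dehydrogenase subunit, which had 1 count in the footprint library of 60 min and 0 in the other 15 libraries.

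RAW264.7 is a mouse macrophage-like cell line, and its cultures were given 100 ng/ml of lipopolysaccharide (LPS, from Escherichia coli O111:B4) for 15, 30, 45, 60, 75 or 90 min or for 16 h, or were left untreated (0 min). At each of the 8 times 1 lysate gave an input library, made from fragmented cytoplasmic RNA, and a footprint library, made from the RNA that ribosomes had protected from RNase I. Each group thus held 1 library, 16 in all. Untreated cells were taken at 0 min only, so time in culture and LPS cannot be told apart at later times. Every library summed to between 6702930 and 6702932 counts, a common total that does not show how deeply each had been sequenced. Of the 11 macrophage markers in the table, 10 were detected, and their summed input count was 34014 at 16 h and 22733 in untreated cells. Marker lists of other cell types also had higher sums at 16 h. Those in the table summed to 297 at 16 h and 96 in untreated cells for osteoclasts (mostly Acp5 and Dcstamp), 91 and 24 for T cells (Lck), 51 and 1 for neutrophils (S100a8), 42 and 0 for fibroblasts (Lum), and 30 and 16 for B cells (Cd79b), while epithelium had 0 at both times. What part these markers play in the 16 h results was not tested.

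Glycolysis splits glucose into pyruvate in the cytosol and yields a little ATP, with lactate as the product when pyruvate is not burned. The pentose phosphate pathway branches off at glucose 6-phosphate and makes NADPH and ribose 5-phosphate, while the TCA cycle oxidises acetyl-CoA in mitochondria. Macrophages activated by LPS are known for high glucose uptake and lactate release and for a TCA cycle in which citrate, itaconate and succinate build up.

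After 16 h of LPS, glycolytic messages moved in both directions. In the group of pyruvate dehydrogenase and the TCA cycle, 13 of 22 genes were lower in footprints and 10 of 22 in input, and 2 were higher in each. That group also holds genes outside the cycle itself, and Pdk1, Idh1, Mdh1 and Me2 were among those lower in both materials. The glucose transporter Slc2a1 and the hexokinase Hk3 rose the most, and the mitochondrial isocitrate dehydrogenase Idh2, fumarase (Fh1) and the cytosolic malate dehydrogenase Mdh1 were among those that fell the most. In footprints 34 of the 50 tested genes passed an adjusted p of 0.05 at 16 h, 11 up and 23 down, where 50.6% of all 9529 tested genes did (26% up, 24.6% down). In input 33 passed, 14 up and 19 down, against 55.3% of all tested genes (28.3% up, 27% down). Of these, 11 rose and 18 fell in both materials, and 0 moved in opposite directions. Adjusted p-values here are from edgeR (quasi-likelihood F-test, Benjamini-Hochberg over all 9529 genes). With 1 library a group they rest on how far libraries lay from a smooth time curve, and no pair of single libraries was compared with replicates behind it. When libraries were scaled by their total counts, 9 genes were up and 27 down in footprints, and 10 up and 26 down in input. These are 72% of the members in each material, against 51.4% of all tested genes in footprints and 57.5% in input. The calls over all tested genes leaned down with that scaling, with 2104 of 4902 up in footprints and 2107 of 5483 up in input.

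**Figure D1:**
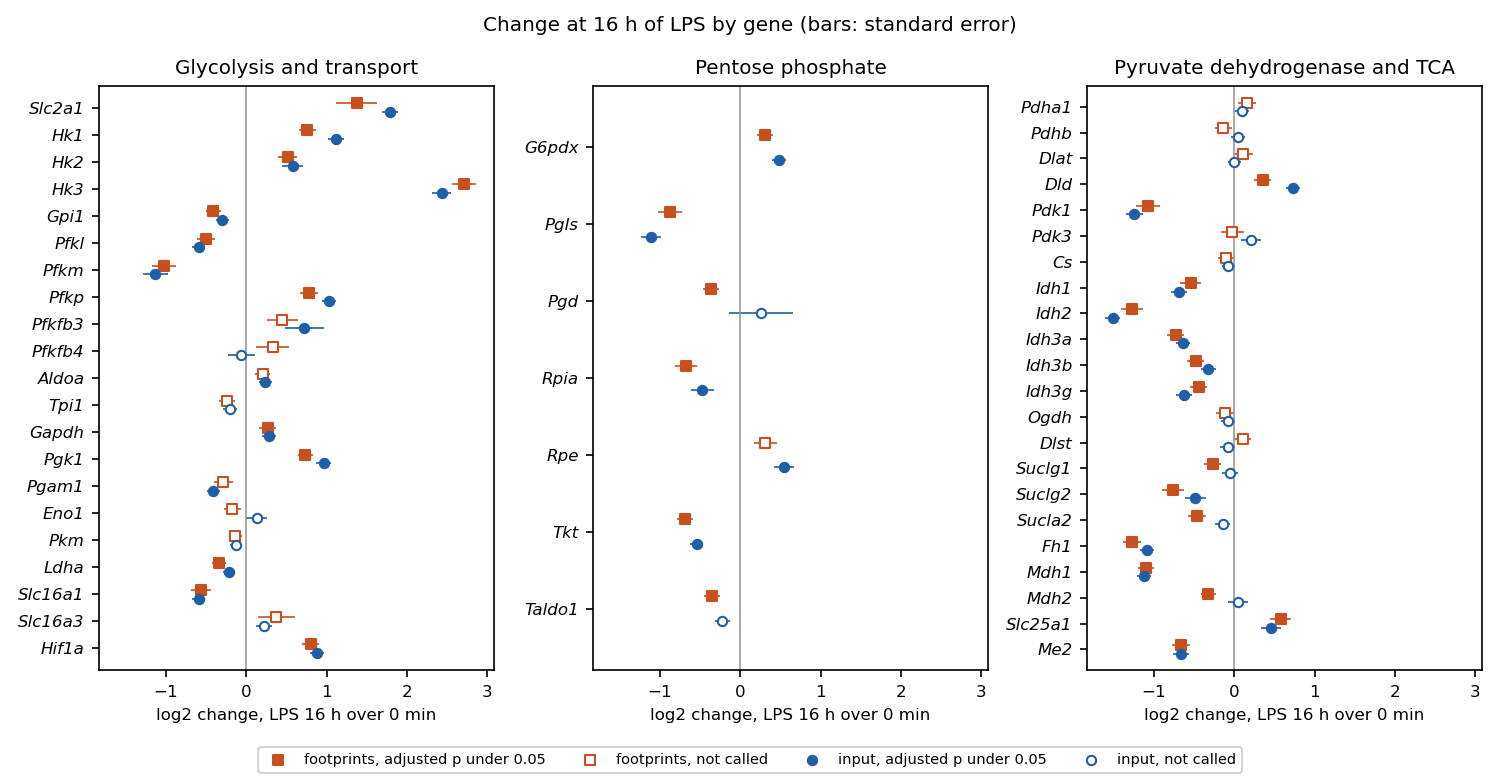
Log2 change at 16 h of LPS over the fitted value at 0 min (horizontal axis) for the 50 tested genes, by pathway, with squares for footprints, circles for input, filled symbols for an adjusted p under 0.05 and bars for the standard error. Hk3 and Slc2a1 lie farthest right in glycolysis, and Idh2, Pdk1, Fh1 and Mdh1 farthest left in the group of pyruvate dehydrogenase and the TCA cycle.

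In footprints at 16 h, glycolysis and transport had 8 genes up and 5 down of 21 tested, with a median log2 change of 0.27, and the pentose phosphate pathway had 1 up and 5 down of 7, with a median of -0.37. Pyruvate dehydrogenase and the TCA cycle had 2 up and 13 down of 22, with a median of -0.38, where the median over all tested genes was 0.0040. Input gave 10 up and 6 down in glycolysis (median 0.22), 2 up and 3 down in the pentose phosphate pathway (median -0.23), and 2 up and 10 down in the TCA group (median -0.11), where the median of all tested genes was 0.0068. Whether the pathways differed from one another was not tested. The split in glycolysis depended on the scaling. With total-count scaling it became 7 up and 9 down in footprints and 7 up and 8 down in input, and with median-of-ratios scaling 7 up and 7 down in footprints. The TCA group had 2 up and 13 down in footprints under both, and 1 up and 14 down in input with total-count scaling. With total-count scaling the calls over all tested genes leaned down as well, as given above.

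Over 0 to 90 min few of these genes were called with TMM scaling. In footprints 7 of 50 were called, 5 up and 2 down, where 21.8% of all tested genes were called (12.7% up, 9.13% down). In input 8 were called, 5 up and 3 down, against 27.1% of all tested genes (15.2% up, 11.9% down), so both shares were below the background with this scaling. The gene for the hypoxia-inducible factor subunit, Hif1a, and the gene of the dihydrolipoamide dehydrogenase subunit, Dld, rose in both materials, and Pfkfb4 and Pdk1 fell in both. With total-count scaling the early counts became 2 up and 25 down in footprints, which is 54% of the members against 37.2% of all tested genes, and 3 up and 12 down in input, 30% against 31.5%. The footprint share was then above the background. Relative to the untreated library the TMM factor of the 90 min library was -0.276 on the log2 scale in footprints and -0.122 in input.

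**Figure D2:**
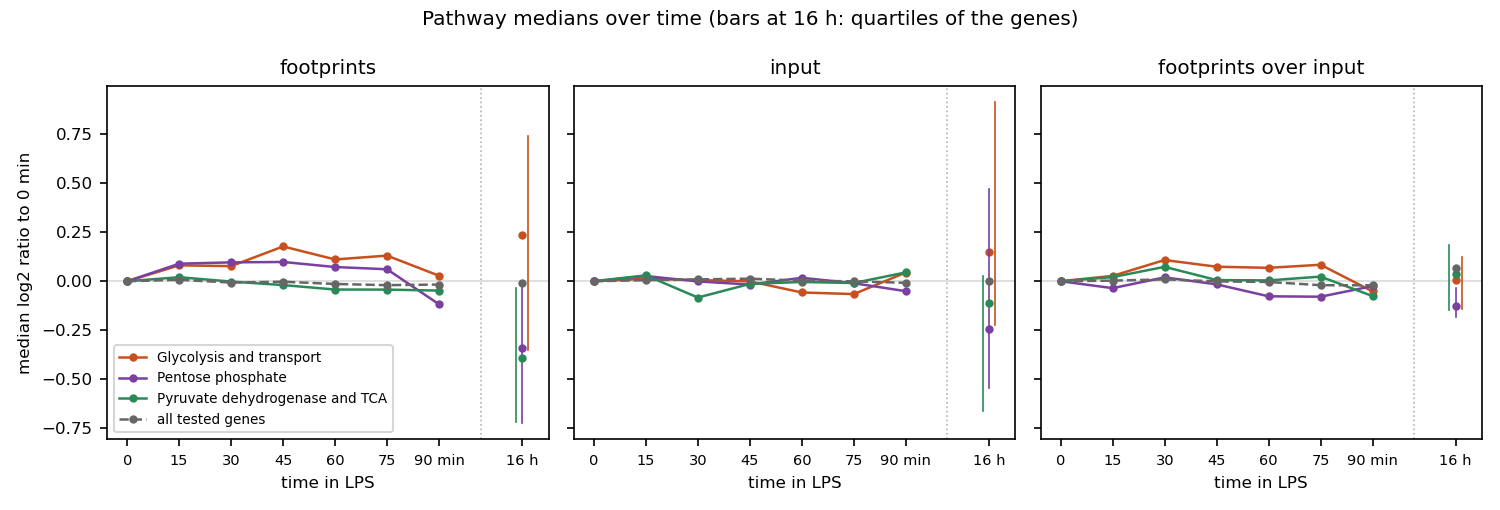
Median log2 ratio to the untreated library (vertical axis) over the genes of each pathway and over all tested genes (dashed), against time in LPS, in footprints, in input and in the ratio of footprints to input. Between 15 and 90 min every pathway median stayed within 0.18 of 0, and at 16 h the footprint medians were 0.24 for glycolysis, -0.34 for the pentose phosphate pathway and -0.39 for the TCA group; thin bars at 16 h span the quartiles.

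The upstream sequences of genes that rose and of genes that fell are printed because Hif1a was among the genes that rose, and HIF-1 is known to bind a short core in the promoters of many glycolytic genes. The core was searched as ACGTG and GCGTG on both strands (CACGT and CACGC on the other strand; the palindrome CACGTG counts for both strands) in the 250 bases before each RefSeq start. A gene was counted where the window before any of its starts held the core. The core was present in 12 of the 14 genes up in input at 16 h, in 14 of the 17 down that had a sequence, and in 12 of the 17 not called. Of the 49 members with a sequence 39 held it (79.6%), against 64.4% of the 7610 tested genes with a sequence and 47.1% of all protein-coding genes with one. A match is a string of letters and not a measured binding site. The stretches below are from RefSeq on GRCm38.p6, read 5′ to 3′ on the strand of the gene and ended where an annotated exon begins, with the core in capitals.
Slc2a1 (up; chr4:119108495-119108710, plus strand): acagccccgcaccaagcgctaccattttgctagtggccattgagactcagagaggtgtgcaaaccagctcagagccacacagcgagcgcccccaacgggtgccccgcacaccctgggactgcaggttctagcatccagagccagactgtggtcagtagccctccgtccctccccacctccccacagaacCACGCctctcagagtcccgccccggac
Hk3 (up; chr13:55021476-55021635, minus strand): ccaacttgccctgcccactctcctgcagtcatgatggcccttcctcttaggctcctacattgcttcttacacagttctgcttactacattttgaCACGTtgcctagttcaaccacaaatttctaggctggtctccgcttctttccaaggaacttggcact
Pgk1 (up; chrX:106186850-106187099, plus strand): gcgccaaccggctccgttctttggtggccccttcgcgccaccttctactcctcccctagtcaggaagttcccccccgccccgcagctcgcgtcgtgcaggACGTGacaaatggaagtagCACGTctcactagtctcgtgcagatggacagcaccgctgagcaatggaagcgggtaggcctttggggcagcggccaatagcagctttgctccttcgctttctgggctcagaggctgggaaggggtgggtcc
Fh1 (down; chr1:175625636-175625885, minus strand): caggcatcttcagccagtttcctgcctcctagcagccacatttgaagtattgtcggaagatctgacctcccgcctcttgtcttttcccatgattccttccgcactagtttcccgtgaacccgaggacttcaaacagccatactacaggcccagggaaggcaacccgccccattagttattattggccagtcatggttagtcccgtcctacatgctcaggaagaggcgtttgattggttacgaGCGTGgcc
Pdk1 (down; chr2:71872974-71873214, plus strand): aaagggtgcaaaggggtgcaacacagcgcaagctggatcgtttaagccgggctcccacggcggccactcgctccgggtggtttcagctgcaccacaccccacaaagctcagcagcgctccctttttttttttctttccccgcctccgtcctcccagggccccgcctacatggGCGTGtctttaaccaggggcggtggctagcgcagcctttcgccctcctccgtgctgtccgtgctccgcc
The Pgk1 stretch held 2 matches and each of the others 1. The genes shown were picked as examples and all hold the core, and no member without it is printed, so the stretches do not compare genes that rose with genes that fell.

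Levels below are scaled CPM, a gene's share of the counts of its library, corrected by the edgeR (TMM) factor within footprints or within input. Values over 0 to 90 min are listed in the order of the 7 sampled times, beginning with untreated cells. Changes are log2 values with their standard error from the fitted curve; an early change is the largest departure of the curve from its value at 0 min, with a p that tests the whole curve, and a late change is that at 16 h. These levels are relative to the rest of the library, so fewer cells with a message and less of it per cell cannot be told apart.

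Slc2a1 (chr4:119108745-119137330, GRCm38.p6) encodes GLUT1, the main carrier of glucose into these cells. Its footprints measured 144, 156, 122, 188, 211, 236 and 209 over 0 to 90 min and 352 at 16 h. In input it measured 92.3, 99.8, 104, 128, 152, 154 and 174 over 0 to 90 min and 308 at 16 h. Input climbed at each sampled time, and the 16 h library was above all others in both materials. Against the untreated library, the 16 h library had 2.45 times the footprints (95% counting interval 2.28 to 2.64) and 3.33 times the input (3.05 to 3.65). The late changes were 1.38 ± 0.26 (adjusted p = 0.0044) in footprints and 1.79 ± 0.10 (adjusted p = 4.4e-09) in input. Early, input rose by 0.98 ± 0.091 (adjusted p = 1.4e-05), while the footprint change of 0.77 ± 0.23 (adjusted p = 0.12) did not pass the test, its 30 min library being the lowest of the series.

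The hexokinases trap glucose as glucose 6-phosphate, and all the family members tested rose at 16 h. Hk3 (chr13:55005985-55021475), the low-abundance form of myeloid cells, measured 29.00, 32.8, 36.6, 28.3, 34.9, 34.8 and 30.4 over 0 to 90 min and 194 at 16 h in footprints. Its input measured 36.3, 34.9, 38.6, 38.8, 37.2, 33.1 and 37.8 over 0 to 90 min and 194 at 16 h. It was flat through 90 min and far above that at 16 h, with changes of 2.71 ± 0.15 (adjusted p = 4.8e-10) in footprints and 2.43 ± 0.12 (adjusted p = 9.3e-10) in input, the highest of the 50 genes in both. Hk1, the housekeeping form, measured 256, 282, 273, 293, 283, 257 and 248 over 0 to 90 min and 433 at 16 h in footprints. Its input values were 142, 166, 183, 175, 162, 169 and 168 over 0 to 90 min and 320.4 at 16 h. The late changes of Hk1 were 0.76 ± 0.10 (adjusted p = 1.3e-05) in footprints and 1.12 ± 0.10 (adjusted p = 4.9e-07) in input.

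Hk2, the form that growth signals and hypoxia are known to induce, had a different time course. Its footprints measured 149, 197, 219, 221, 208, 187 and 179 over 0 to 90 min and 221 at 16 h. Input values were 105, 109, 135, 144, 125, 109.8 and 121 over 0 to 90 min and 154 at 16 h. Footprints were highest at 30 and 45 min among the early libraries and again at 16 h, and every later footprint library was above the untreated one. The early footprint change was 0.49 ± 0.10 (adjusted p = 0.0044), and the late changes were 0.51 ± 0.12 (adjusted p = 0.0015) in footprints and 0.58 ± 0.13 (adjusted p = 0.0029) in input. The early input change of 0.35 ± 0.12 (adjusted p = 0.092) did not pass. The footprint calls rested on the untreated library: without it the early value was -0.22 (adjusted p = 0.08) and the late one 0.15 (adjusted p = 0.27). With a straight line in time the calls were lost in both materials, with 0.11 early (adjusted p = 0.76) and 0.26 late (0.32) in footprints and 0.41 late (0.067) in input.

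Per kilobase of coding sequence, Hk1 remained the most abundant hexokinase in all libraries compared. Its part of the 3 hexokinases was 50.4% of footprints at 16 h and 58.3% in untreated cells, while Hk3 held 23.1% at 16 h and 6.78% in untreated cells. Hk2 held 26.5% at 16 h and 34.9% in untreated cells. Hk3 thus came close to Hk2 in footprints at 16 h, and in input it was above Hk2, with 29.3% against 23.4% of the family at 16 h, where untreated input had 12.9% for Hk3 and 37.6% for Hk2. Input was also divided by coding length, though its reads cover the whole message. The annotated Hk2 transcript has 5513 bases, 2751 of them coding, and that of Hk3 has 3219, 2766 of them coding. The input shares therefore depend on this choice of length.

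**Figure D3:**
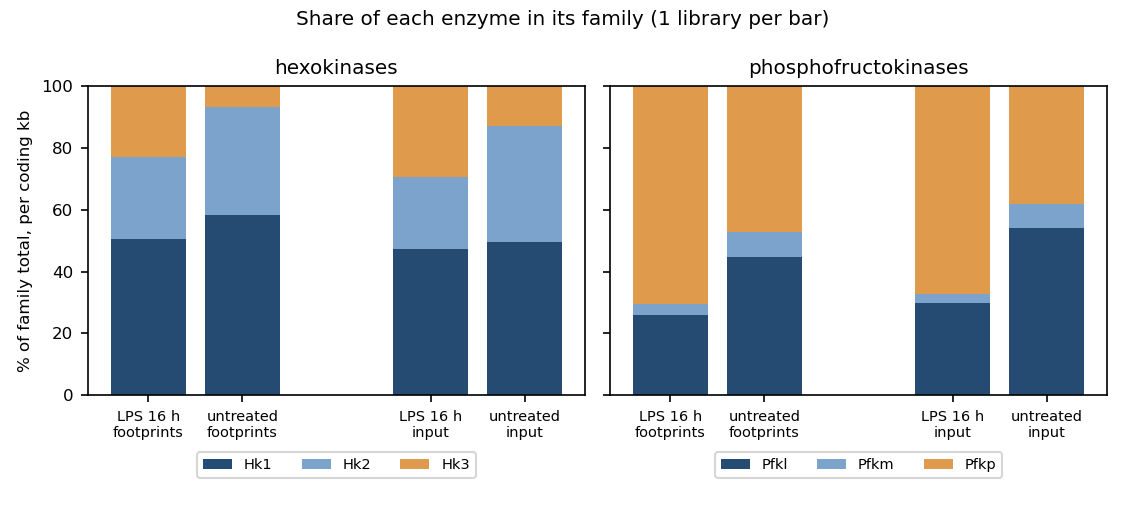
Share of each enzyme in the summed level of its family per coding kilobase (vertical axis, %), for LPS 16 h and untreated libraries of footprints and of input; colours stand for genes and each bar is 1 library. Hk3 held 23.1% of hexokinase footprints at 16 h and 6.78% in untreated cells, and Pfkp held 70.5% of phosphofructokinase footprints at 16 h and 47.1% in untreated cells.

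Phosphofructokinase commits sugar to glycolysis, and its 3 subunit genes moved apart. Pfkp, the platelet-type subunit, rose by 0.78 ± 0.11 (adjusted p = 2.7e-05) in footprints and 1.03 ± 0.090 (adjusted p = 3e-07) in input at 16 h. Pfkm, the muscle-type subunit, measured 59.5, 67.4, 65.9, 81.1, 72.04, 68.1 and 65.8 over 0 to 90 min and 29.02 at 16 h in footprints. Its levels in input were 55.8, 55.9, 57.2, 54.1, 49.7, 45.9 and 54.9 over 0 to 90 min and 26.2 at 16 h. The 16 h libraries were the lowest in both materials, with changes of -1.02 ± 0.15 (adjusted p = 3.2e-05) in footprints and -1.13 ± 0.15 (adjusted p = 2.5e-05) in input. Pfkl, the liver-type subunit, fell, with changes of -0.50 in footprints (adjusted p = 0.0015) and -0.59 in input (adjusted p = 3.1e-05).

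The make-up of the family changed with them. Per coding kilobase, Pfkp held 70.5% of the family's footprints at 16 h and 47.1% in untreated cells, Pfkl 26.1% and 44.8%, and Pfkm 3.42% and 8.10%. In input, Pfkp held 67.1% at 16 h and 38.2% in untreated cells and Pfkl 29.8% and 54.2%. Pfkp was thus above Pfkl at 16 h in both materials and in untreated footprints, and below it in untreated input. These shares have no replicate behind them, and those of input were divided by coding length as above.

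The bifunctional enzymes of the PFKFB family set the level of fructose 2,6-bisphosphate, an activator of phosphofructokinase. Pfkfb3 is the form with the higher kinase activity, and its footprints measured 26.2, 25.1, 25.6, 21.7, 17.2, 22.8 and 18.4 over 0 to 90 min and 36.3 at 16 h. The input libraries gave 15.9, 18.6, 19.8, 14.7, 12.2, 16.3 and 18.9 over 0 to 90 min and 29.8 at 16 h. Both materials were highest at 16 h; input rose by 0.72 ± 0.24 (adjusted p = 0.023), and the footprint change of 0.45 ± 0.19 (adjusted p = 0.063) did not pass. The input call did not hold with total-count scaling (adjusted p = 0.075) or in DESeq2 (adjusted p = 0.069).

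Of the 21 tested genes of the glycolysis and transport group, Pfkfb4 was the one that fell early. Its footprints measured 18.2, 17.4, 19.2, 19.6, 13.9, 10.2 and 9.35 over 0 to 90 min and 22.02 at 16 h. Input levels stood at 22.5, 19.1, 16.7, 15.3, 15.3, 13.7 and 13.6 over 0 to 90 min and 21.3 at 16 h. Input declined from the first 15 min on, footprints stayed near the untreated level until 45 min and were about as low as they got at 75 and 90 min, and both were back near the untreated library at 16 h. The early changes were -1.05 ± 0.20 (adjusted p = 0.0021) in footprints and -0.70 ± 0.15 (adjusted p = 0.0067) in input, and the late ones 0.33 ± 0.21 (adjusted p = 0.2) and -0.060 ± 0.17 (adjusted p = 0.78). The early input call did not hold without the untreated library (-0.47, adjusted p = 0.12) or in DESeq2 (adjusted p = 0.092).

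**Figure D4:**
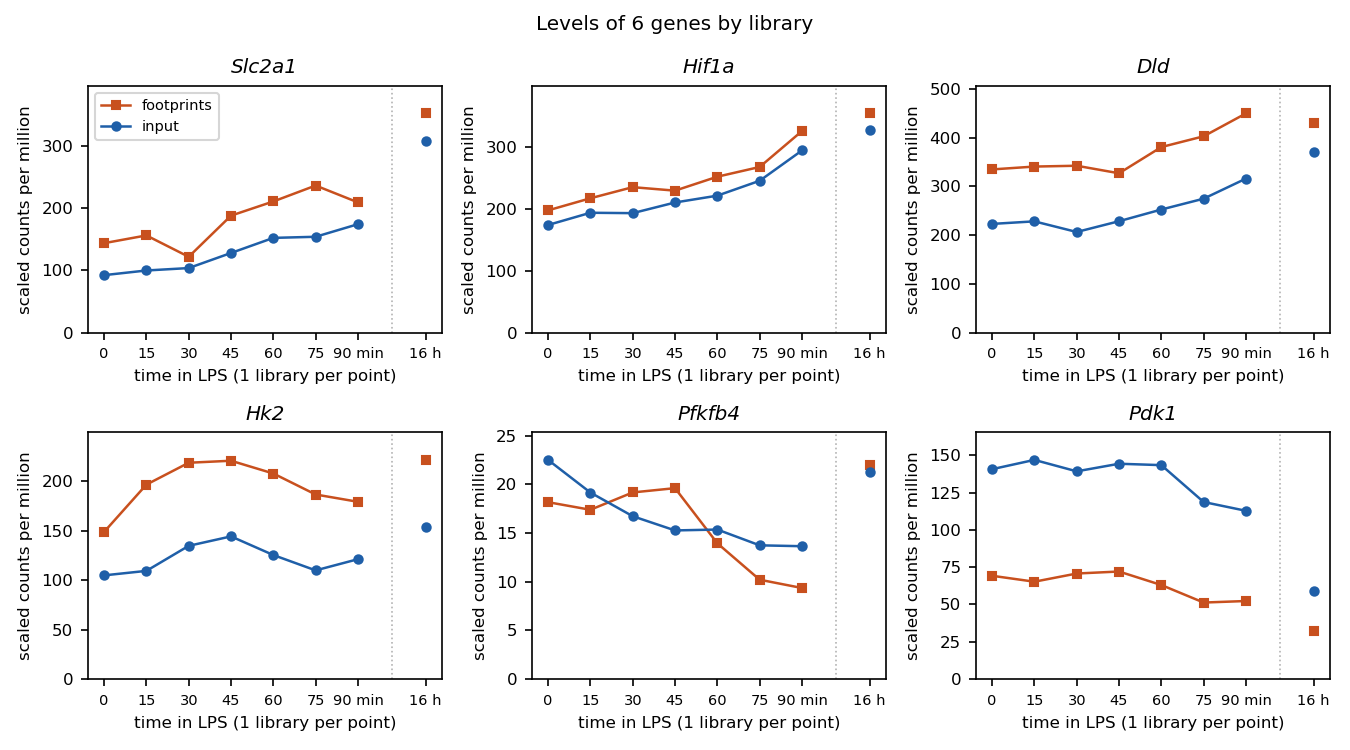
Scaled CPM (vertical axis, from 0) against time in LPS for 6 genes, with 1 library per point, squares for footprints and circles for input. Slc2a1, Hif1a and Dld climb over 90 min, Hk2 footprints are highest early at 45 min with 221, and Pfkfb4 and Pdk1 are lower at 75 and 90 min than before; at 16 h Pdk1 is at its lowest.

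Messages of several glycolytic enzymes share sequence with near-identical processed pseudogenes, which limits what their counts mean. Of the 29-base windows of the coding sequence, a length close to a footprint, those found in no other annotated GENCODE transcript were 0.0% for Pgk1 and Pgam1, 5.7% for Gapdh, 9.8% for Eno1, 18.5% for Pkm, 39.7% for Ldha, 47.5% for Gpi1, 55.3% for Aldoa and 65.0% for Tpi1. Outside glycolysis the share was 38.5% for Pdhb, 71.5% for Taldo1, 79.1% for G6pdx and 80.1% for Cs. The treatment of reads with several matches is not given, so the levels of these genes are uncertain, and what part this plays in the changes was not tested. For comparison, Slc2a1, Hk1, Hk2, Hk3, Pfkl, Pfkm, Pfkp and Pfkfb3 all had 100.0% of windows of their own.

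Pgk1, the enzyme of the first ATP-forming step, rose the most of the glycolytic enzymes with shared windows. It measured 1936, 2134, 2044, 2259, 2151, 2101 and 2104 over 0 to 90 min and 3241 at 16 h in footprints. For input the values were 1432, 1456, 1254, 1445, 1398, 1344 and 1422 over 0 to 90 min and 2786 at 16 h. Only the 16 h libraries stood apart, with changes of 0.73 ± 0.091 (adjusted p = 5.3e-06) in footprints and 0.96 ± 0.092 (adjusted p = 8e-07) in input. Gapdh, the enzyme before it, measured 736, 736, 711, 769, 740.2, 825 and 750.4 over 0 to 90 min and 868 at 16 h in footprints. The gene's input measured 293, 308, 309, 293, 277, 302 and 311 over 0 to 90 min and 368 at 16 h. The late changes of Gapdh were small, 0.27 ± 0.10 (adjusted p = 0.042) in footprints and 0.29 ± 0.089 (adjusted p = 0.014) in input. The footprint call did not hold in 8 of 13 alternatives, among them leaving out the 15 min (0.27, adjusted p = 0.075), 45 min (0.27, 0.06) or 90 min library (0.24, 0.053), and the input call did not hold with total-count scaling (0.12, adjusted p = 0.26).

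The other enzymes described here had smaller changes at 16 h than Pgk1. Aldoa, the aldolase, rose in input by 0.24 ± 0.082 (adjusted p = 0.024), a call that did not hold without the 90 min library (0.21, adjusted p = 0.061), with total-count scaling (0.074, adjusted p = 0.44) or in DESeq2 (adjusted p = 0.057). Its footprint change was 0.20 ± 0.095 (adjusted p = 0.087). Gpi1, the isomerase that follows hexokinase, fell, with changes of -0.41 in footprints (adjusted p = 0.0022) and -0.30 in input (adjusted p = 0.0045). Pgam1, the mutase, fell in input with -0.41 ± 0.083 (adjusted p = 0.00076), and its footprint value was -0.29 ± 0.12 (adjusted p = 0.052). Tpi1 and Eno1 passed in neither material; the footprint values were -0.24 ± 0.099 for Tpi1 and -0.17 ± 0.11 for Eno1.

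Going by the deposited counts, Pkm, pyruvate kinase, ranked highest of the 51 genes per coding kilobase in the untreated and 16 h libraries. As 18.5% of its 29-base windows were unique, and fewer of those of Gapdh and Eno1, the order among these genes is uncertain. Footprints of Pkm measured 9565, 10118, 10535, 10959, 10331, 10998 and 10399 over 0 to 90 min and 8671 at 16 h. In input it measured 7013, 7073, 6454, 7123, 6696, 6916 and 7096 over 0 to 90 min and 6412 at 16 h. Both materials stayed within a narrow range, lowest at 16 h, and the late changes of -0.14 ± 0.080 (adjusted p = 0.17) in footprints and -0.13 ± 0.079 (adjusted p = 0.19) in input did not pass.

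Lactate production and export did not move as one. Ldha, which turns pyruvate into lactate, measured 3232, 3166, 3079.6, 3172, 3173, 3206 and 3136 over 0 to 90 min and 2509 at 16 h in footprints. Its input measured 1789, 1763, 1611, 1694, 1719.6, 1683 and 1783 over 0 to 90 min and 1533 at 16 h. The 16 h libraries were the lowest in both materials, and Ldha fell, with changes of -0.34 in footprints (adjusted p = 0.0031) and -0.22 in input (adjusted p = 0.025). The input call did not hold without the untreated (-0.17, adjusted p = 0.098), the 15 min (-0.20, 0.069) or the 75 min library (-0.22, 0.055), nor in DESeq2 (adjusted p = 0.055) or with a straight line in time (0.083).

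Slc16a1 encodes MCT1, a lactate and pyruvate carrier, and it fell, with changes of -0.56 in footprints (adjusted p = 0.0016) and -0.59 in input (adjusted p = 2.9e-05) at 16 h. Slc16a3 encodes MCT4, the lactate exporter of glycolytic cells. It measured 189, 193, 152, 212, 223, 229 and 183 over 0 to 90 min and 229 at 16 h in footprints. Input values were 249, 217, 250.4, 269, 276, 277 and 295 over 0 to 90 min and 274 at 16 h. Input rose early by 0.33 ± 0.087 (adjusted p = 0.029), with the 90 min library the highest, and no late change passed, with values of 0.37 ± 0.23 in footprints and 0.22 ± 0.10 in input. The early call did not hold without the 15 min (0.25, adjusted p = 0.083), 75 min (0.35, 0.074) or 90 min library (0.26, 0.15), with total-count scaling (0.17) or in DESeq2 (0.073).

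Hif1a encodes the oxygen-regulated subunit of HIF-1, a transcription factor that is also known to accumulate in LPS-treated macrophages. Its footprints measured 198, 218, 236, 229.9, 253, 268 and 326 over 0 to 90 min and 355 at 16 h. The input libraries gave 174, 194, 193, 211, 222, 246 and 295 over 0 to 90 min and 329 at 16 h. Untreated cells had the lowest value and the 16 h library the highest in both materials. The early changes were 0.61 ± 0.095 (adjusted p = 0.00045) in footprints and 0.68 ± 0.075 (adjusted p = 4.6e-05) in input, and the late ones 0.80 ± 0.11 (adjusted p = 1.6e-05) and 0.88 ± 0.086 (adjusted p = 1.1e-06); they passed in all alternatives run.

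In the pentose phosphate pathway the entry enzyme rose at 16 h. G6pdx, glucose 6-phosphate dehydrogenase, makes the first NADPH and controls the pathway. It measured 347, 369, 370.4, 371, 367, 371 and 365 over 0 to 90 min and 432 at 16 h in footprints. Input levels stood at 192, 204, 204, 189.8, 194, 209 and 216 over 0 to 90 min and 276 at 16 h. The 16 h libraries were the highest, with changes of 0.31 ± 0.099 (adjusted p = 0.015) in footprints and 0.48 ± 0.090 (adjusted p = 0.00041) in input. The footprint call did not hold without the untreated library (0.24, adjusted p = 0.058) or with total-count scaling (0.21, adjusted p = 0.078).

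The lactonase of the second step, Pgls, measured 51.6, 59.5, 55.6, 60.6, 56.2, 58.4 and 47.6 over 0 to 90 min and 28.3 at 16 h in footprints. Its input values were 86.01, 86.9, 75.97, 81.1, 78.8, 68.5 and 67.2 over 0 to 90 min and 39.5 at 16 h. Both materials were lowest at 16 h, with changes of -0.87 ± 0.15 (adjusted p = 0.00014) in footprints and -1.11 ± 0.12 (adjusted p = 3.2e-06) in input. Input also fell early, with -0.36 (adjusted p = 0.031), and footprints did not follow, with 0.19 ± 0.12 (adjusted p = 0.22). That early call did not hold without the untreated (-0.34, adjusted p = 0.09), 15 min (-0.34, 0.097), 45 min (-0.36, 0.056), 75 min (-0.33, 0.11) or 90 min library (-0.29, 0.16), nor in DESeq2 (0.18).

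Pgd, 6-phosphogluconate dehydrogenase, makes the second NADPH. Its footprints measured 733, 818, 817, 823, 770.4, 764 and 765 over 0 to 90 min and 582 at 16 h. For input the values were 93.98, 112, 160.0, 110.4, 106, 126 and 157 over 0 to 90 min and 126 at 16 h. Footprints were even over 90 min and lowest at 16 h, with a change of -0.37 (adjusted p = 0.0065). Input was uneven, with the 30 and 90 min libraries the highest, and its late change was 0.26 ± 0.40 (adjusted p = 0.63).

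The non-oxidative branch links pentoses back to glycolysis. Tkt, transketolase, measured 647, 699.7, 730.4, 763, 767, 834 and 787 over 0 to 90 min and 399 at 16 h in footprints. Its levels in input were 530.0, 517, 564, 591, 579.5, 578 and 608 over 0 to 90 min and 356 at 16 h. Footprints climbed to their highest at 75 min and were lowest at 16 h, so that Tkt rose early in footprints by 0.31 ± 0.083 (adjusted p = 0.031) and fell late, with -0.69 ± 0.099 (adjusted p = 2.6e-05) in footprints and -0.54 ± 0.082 (adjusted p = 6.6e-05) in input. The early call did not hold without the untreated (0.19, adjusted p = 0.27), 15 min (0.31, 0.08), 45 min (0.30, 0.065) or 75 min library (0.27, 0.11), nor with total-count scaling (0.096, 0.6).

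Taldo1, transaldolase, measured 301, 299, 275, 269, 269, 271 and 277 over 0 to 90 min and 238 at 16 h in footprints. The gene's input measured 222, 226, 204, 222, 225, 214 and 206 over 0 to 90 min and 187 at 16 h. Both were lowest at 16 h; footprints fell, with -0.35 (adjusted p = 0.0086), and the input value was -0.23 ± 0.093 (adjusted p = 0.052). The pentose isomerase Rpia measured 78.7, 62.6, 67.7, 67.8, 64.4, 63.7 and 71.7 over 0 to 90 min and 46.8 at 16 h in footprints. Its input measured 60.4, 53.2, 58.8, 53.2, 52.5, 59.95 and 52.8 over 0 to 90 min and 42.05 at 16 h. Rpia was lowest at 16 h in both and fell, with changes of -0.68 in footprints (adjusted p = 0.00073) and -0.47 in input (adjusted p = 0.01).

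The pentose epimerase Rpe was higher at 16 h. Its footprints measured 52.2, 52.3, 42.01, 48.8, 44.6, 47.7 and 45.1 over 0 to 90 min and 64.6 at 16 h. In input it measured 44.1, 48.02, 44.1, 42.2, 40.6, 42.7 and 42.6 over 0 to 90 min and 66.8 at 16 h. The 16 h libraries were the highest in both; the input rise of 0.54 ± 0.12 (adjusted p = 0.0021) passed and the footprint change of 0.31 ± 0.14 (adjusted p = 0.079) did not.

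Pyruvate dehydrogenase feeds pyruvate into the TCA cycle, and its own subunits moved little apart from Dld, the dihydrolipoamide dehydrogenase that the 2-oxoglutarate dehydrogenase complex and other enzymes share. Footprints of Dld measured 335, 340.5, 342, 327, 380.5, 403 and 449 over 0 to 90 min and 429.9 at 16 h. Input values were 223, 228, 206, 228, 252, 275 and 316 over 0 to 90 min and 371 at 16 h. Input climbed from 45 min on and was highest at 16 h, and footprints were highest at 90 min. The early changes were 0.41 ± 0.089 (adjusted p = 0.0041) in footprints and 0.50 ± 0.074 (adjusted p = 0.00025) in input, and the late ones 0.35 ± 0.10 (adjusted p = 0.01) and 0.73 ± 0.086 (adjusted p = 6.3e-06). The early footprint call did not hold without the 90 min library (0.25, adjusted p = 0.1) or with total-count scaling (0.15, adjusted p = 0.061).

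Pdha1, the catalytic alpha subunit, measured 108, 119.7, 134, 124, 142, 141 and 139 over 0 to 90 min and 121 at 16 h in footprints. Its input values were 116, 116, 109, 114, 111, 117 and 122 over 0 to 90 min and 124 at 16 h. Footprints were above the untreated library at each early time and rose by 0.36 ± 0.092 (adjusted p = 0.026), while input stayed level with -0.072 ± 0.078 (adjusted p = 0.45). The footprint call did not hold in 7 of 14 alternatives, which included leaving out the untreated (0.20, adjusted p = 0.37), 15 min (0.36, 0.075), 60 min (0.34, 0.066), 75 min (0.35, 0.064) or 90 min library (0.36, 0.051). At 16 h neither Pdha1 nor the beta subunit Pdhb nor the acetyltransferase Dlat passed in either material, with footprint changes of 0.16 ± 0.11 for Pdha1, -0.14 ± 0.11 for Pdhb and 0.11 ± 0.11 for Dlat.

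Pdk1 phosphorylates pyruvate dehydrogenase and thereby switches it off. It measured 69.2, 65.3, 70.8, 72.1, 63.05, 51.3 and 52.3 over 0 to 90 min and 31.9 at 16 h in footprints. The input libraries gave 141, 147, 139, 144, 143, 119 and 113 over 0 to 90 min and 58.7 at 16 h. Both materials were lower at 75 and 90 min than at any earlier time, and lowest at 16 h. The late changes were -1.07 ± 0.15 (adjusted p = 2.1e-05) in footprints and -1.25 ± 0.11 (adjusted p = 2.6e-07) in input. The early ones were -0.44 ± 0.12 (adjusted p = 0.022) and -0.33 ± 0.084 (adjusted p = 0.01); without the 90 min library they were -0.33 (adjusted p = 0.065) in footprints and -0.19 (0.17) in input, and without the 75 min library the footprint value was -0.36 (0.075). The early footprint call was also lost in DESeq2 (adjusted p = 0.085), with a straight line in time (0.052) and with the square root of time (0.057). Pdk3, a further kinase of the complex, passed in no comparison of change, with -0.024 ± 0.14 in footprints and 0.21 ± 0.12 in input at 16 h.

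Citrate synthase (Cs), which opens the cycle, measured 406, 458, 467, 499, 485, 491 and 484 over 0 to 90 min and 383 at 16 h in footprints. Its levels in input were 304, 318, 295, 293, 290.4, 297 and 315 over 0 to 90 min and 296 at 16 h. Footprints were above the untreated library from 15 to 90 min and below it at 16 h, but neither the early footprint change of 0.27 ± 0.088 (adjusted p = 0.084) nor the late one of -0.098 ± 0.10 (adjusted p = 0.44) passed. The mitochondrial citrate carrier Slc25a1, which exports citrate for lipid synthesis, measured 56.6, 60.04, 52.2, 54.6, 58.9, 59.1 and 54.6 over 0 to 90 min and 84.6 at 16 h in footprints. The gene's input measured 58.4, 59.03, 50.3, 59.7, 55.98, 58.1 and 66.3 over 0 to 90 min and 80.9 at 16 h. Both materials were highest at 16 h, with changes of 0.58 ± 0.13 (adjusted p = 0.0017) in footprints and 0.46 ± 0.12 (adjusted p = 0.0058) in input, the input call missing with total-count scaling (0.30, adjusted p = 0.051). Slc25a1 and Dld were the 2 genes of this group that rose at 16 h in both materials.

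The isocitrate dehydrogenases fell together at 16 h, all 5 genes in both materials. Idh2, the NADP-dependent mitochondrial enzyme, measured 278, 276, 229, 273, 263, 273 and 239.5 over 0 to 90 min and 112 at 16 h in footprints. Its input measured 344, 337, 302, 330.5, 319, 307 and 306 over 0 to 90 min and 119 at 16 h. Footprint values before 16 h lay between 229 and 278, and the 16 h libraries were far below in both materials. The changes were -1.27 ± 0.14 (adjusted p = 1.1e-06) in footprints and -1.51 ± 0.093 (adjusted p = 8.8e-09) in input, the largest fall among the 50 genes in input. Idh1, the cytosolic NADP-dependent enzyme, measured 203, 211, 182, 214, 197, 164 and 171 over 0 to 90 min and 138 at 16 h in footprints. Its input values were 142, 142, 127, 138, 127, 126 and 118 over 0 to 90 min and 87.4 at 16 h. It was lowest at 16 h, with changes of -0.54 ± 0.13 (adjusted p = 0.0024) and -0.69 ± 0.100 (adjusted p = 4.5e-05).

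The NAD-dependent enzyme of the cycle is built from the products of Idh3a, Idh3b and Idh3g. The catalytic subunit Idh3a measured 422, 425, 388, 416, 418, 462 and 446 over 0 to 90 min and 253 at 16 h in footprints. Its levels in input were 301, 296, 276, 293, 300.2, 304 and 344 over 0 to 90 min and 194 at 16 h. Both were lowest at 16 h, with changes of -0.73 ± 0.11 (adjusted p = 3.7e-05) in footprints and -0.64 ± 0.083 (adjusted p = 1.7e-05) in input. The early input change of Idh3a was called, at 0.16 ± 0.069 (adjusted p = 0.038), but it held in 4 of 14 alternatives. It was lost in DESeq2 (adjusted p = 0.15) and with a straight line in time (0.18), and turned negative with total-count scaling (-0.14, 0.12) and with the square root of time (-0.12, 0.1). Its value was -0.084 (adjusted p = 0.52) without the 90 min library, 0.22 (0.054) without the untreated one, 0.18 (0.057) without 15 min, 0.16 (0.075) without 45 min, 0.16 (0.05) without 60 min and 0.19 (0.07) without 75 min. Idh3b fell at 16 h, with -0.48 in footprints (adjusted p = 0.0011) and -0.32 in input (0.0075), and Idh3g with -0.44 (0.0021) and -0.63 (9e-05).

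In the middle of the cycle the calls were mixed. Ogdh and Dlst, which belong to the 2-oxoglutarate dehydrogenase complex, passed at 16 h in neither material, with footprint changes of -0.11 ± 0.11 for Ogdh and 0.10 ± 0.11 for Dlst. Succinyl-CoA ligase has the alpha subunit Suclg1 and a GTP- or ADP-specific beta subunit from Suclg2 or Sucla2. Suclg2 fell, with changes of -0.76 in footprints (adjusted p = 0.00018) and -0.48 in input (0.0069), though 26.9% of its 29-base windows were unique. Sucla2 fell in footprints, with -0.47 (adjusted p = 0.0021), with an input value of -0.14 ± 0.093 (adjusted p = 0.21). Suclg1 was called down in footprints, -0.27 ± 0.11 (adjusted p = 0.042), a call lost in 8 of 13 alternatives. Those 8 included leaving out the untreated (-0.25, adjusted p = 0.066), 15 min (-0.28, 0.065), 45 min (-0.26, 0.071), 60 min (-0.27, 0.063) and 75 min libraries (-0.27, 0.054).

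The genes of fumarase and of the cytosolic malate dehydrogenase had some of the largest falls. Mdh2, which serves the cycle's own step from malate to oxaloacetate, fell less and was called in footprints only. Fumarase, Fh1 (chr1:175601378-175625635), measured 469, 501, 453, 471, 429, 447 and 436 over 0 to 90 min and 198 at 16 h in footprints. The gene's input measured 366, 366, 338, 356, 356, 331 and 349.7 over 0 to 90 min and 172 at 16 h. The 16 h libraries were at less than the lowest earlier library in both, and Fh1 changed by -1.27 ± 0.11 (adjusted p = 1e-07) in footprints, the largest fall there, and -1.08 ± 0.087 (adjusted p = 1.4e-07) in input. Mdh1, the cytosolic malate dehydrogenase of the malate-aspartate shuttle, measured 683, 691, 661, 676, 629.9, 626 and 618 over 0 to 90 min and 319 at 16 h in footprints. Its input measured 407, 407, 364, 359, 376, 356 and 366 over 0 to 90 min and 188 at 16 h. Mdh1 changed by -1.103 ± 0.10 (adjusted p = 1.7e-07) in footprints and -1.12 ± 0.086 (adjusted p = 8e-08) in input.

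Mdh2, the mitochondrial malate dehydrogenase of the cycle itself, measured 705, 708, 702, 705, 679, 705 and 692 over 0 to 90 min and 563 at 16 h in footprints. Its input values were 188, 207, 237, 205, 205, 215 and 243 over 0 to 90 min and 203 at 16 h. It fell in footprints, with -0.32 (adjusted p = 0.011), with the 16 h library the lowest, while the input value was 0.045 ± 0.13 (adjusted p = 0.79) and the 16 h input lay within the range of the others. Me2, the mitochondrial malic enzyme, fell, with changes of -0.66 in footprints (adjusted p = 0.00011) and -0.66 in input (5.9e-05).

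Other genes of these pathways, taken from lists chosen with earlier results of these data known, were counted in the same fits. Of 23 further TCA and anaplerosis genes that were tested, 5 rose and 9 fell in footprints at 16 h, and 4 rose and 10 fell in input. These and the counts that follow stand against 26% of all tested genes up and 24.6% down in footprints, and 28.3% up and 27% down in input. The 4 subunit genes of succinate dehydrogenase, the enzyme between succinyl-CoA ligase and fumarase, fell in both materials; footprint changes were -0.58 ± 0.10 (adjusted p = 0.00016) for Sdha, -0.66 ± 0.11 (adjusted p = 0.00015) for Sdhb, -0.30 ± 0.10 (adjusted p = 0.025) for Sdhc and -0.88 ± 0.10 (adjusted p = 3.3e-06) for Sdhd. Acod1, which makes itaconate, measured 1.900, 2.400, 2.51, 23.9, 172, 391 and 701 over 0 to 90 min and 3709.6 at 16 h in footprints, against 4.27, 2.57, 12.97, 48.3, 178, 371 and 685 over 0 to 90 min and 3431 at 16 h in input, and was one of the genes that rose.

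Some genes that link the cycle to neighbouring pathways rose. Pck2, mitochondrial phosphoenolpyruvate carboxykinase, changed by 1.37 ± 0.11 (adjusted p = 4.2e-08) in footprints and 1.46 ± 0.096 (adjusted p = 1.8e-08) in input at 16 h. Me1, the cytosolic malic enzyme and a source of NADPH, changed by 1.00 ± 0.15 (adjusted p = 3.8e-05) and 0.80 ± 0.15 (adjusted p = 0.00043). Slc25a10, the dicarboxylate carrier, fell instead, with -1.67 in footprints (adjusted p = 2.2e-06) and -1.56 in input (1e-05).

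Among 21 further glycolysis genes tested, 4 rose and 3 fell in footprints at 16 h, and 5 rose and 5 fell in input. Enolase genes diverged, as Eno3 fell, with -2.07 in footprints (adjusted p = 1.4e-09) while the less abundant Eno2 rose by 2.82 ± 0.43 (adjusted p = 0.00038). Pgm1 and Pgm2, genes of the phosphoglucomutase family, rose by 0.64 ± 0.12 and 0.58 ± 0.12 in footprints. Of 7 further pentose phosphate genes, 1 rose and 3 fell in footprints, among them the ribose-phosphate diphosphokinase Prps2 with -1.72 ± 0.12 (adjusted p = 8.6e-09). H6pd, the microsomal counterpart of G6pdx, was the gene that rose, with 0.65 ± 0.21 (adjusted p = 0.016).

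A list of 17 other messages joined known HIF-1 targets of hypoxic cells with a further HIF-1 subunit (Arnt) and regulators of HIF-1 (Hif1an and Vhl). It had 5 up and 3 down in footprints at 16 h and 7 up and 3 down in input, with medians of 0.21 and 0.10. Of all tested genes 26% were up and 24.6% down in footprints and 28.3% up and 27% down in input. Ero1l, an oxidase of disulfide formation, changed by 2.15 ± 0.16 (adjusted p = 3.5e-07) in footprints and 2.23 ± 0.12 (adjusted p = 4.6e-09) in input. P4ha1, a prolyl hydroxylase of collagen, changed by 0.94 ± 0.14 (adjusted p = 4.8e-05) and 0.88 ± 0.088 (adjusted p = 1.2e-06), and the growth factor gene Vegfa by 1.498 ± 0.30 (adjusted p = 0.00059) and 1.097 ± 0.19 (adjusted p = 0.00023). Egln1, a HIF prolyl hydroxylase, fell, with -0.92 (adjusted p = 0.036) and -1.03 (6.4e-05). Among the members, Slc2a1 and Pgk1, called up in both materials, and Ldha and Pdk1, called down in both, are examples of known HIF-1 targets. The members were not sorted into targets and others, so these examples give no share for either direction. Any part of HIF-1 in the changes was not tested.

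Ribosome density (footprints relative to input) was modelled over all 16 libraries. Its change over 0 to 90 min passed for 0 of the 50 genes, where 1.28% of all tested genes passed (1.14% up, 0.136% down), and its change at 16 h also passed for 0, against 0.504% of all tested genes (0.378% up, 0.126% down). DESeq2 called 0 in both as well. At an unadjusted p under 0.05, edgeR's test gave 6 genes early, all with an upward largest departure, and 3 genes at 16 h, 1 of them upward. At that threshold 9.18% of all tested genes passed early and 10.4% at 16 h, so 6 and 3 of 50 are close to or below the background. The standard error of these density changes had a median of 0.12 early and 0.14 at 16 h on the log2 scale, so changes of about that size were not detectable. In simulated data, 75% of genes with a log2 density change of 1 were recovered early and 55% at 16 h, and 13% and 14% of those with a change of 0.5.

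As a description, the 6 early genes were Pfkfb4 (0.50 ± 0.23), Cs (0.37 ± 0.11), Pdha1 (0.41 ± 0.13), Pfkm (0.48 ± 0.16), Idh3g (0.29 ± 0.12) and Aldoa (0.32 ± 0.12), with adjusted p from 0.34 to 0.52. For Cs the ratio of footprints to input was 1.54, 1.66, 1.86, 1.98, 1.94, 1.904 and 1.76 over 0 to 90 min and 1.57 at 16 h. For Pfkfb4 it was 0.93, 1.05, 1.34, 1.496, 1.05, 0.86 and 0.78 over 0 to 90 min and 1.26 at 16 h. The ratio of Cs was above the untreated one at every later time, and that of Pfkfb4 was highest at 45 min and lowest at 90 min. At 16 h the 3 genes were Idh2 (0.32 ± 0.14), Dld (-0.30 ± 0.14) and Pgd (-0.55 ± 0.24), and their adjusted p ran from 0.43 to 0.45.

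Leaving out the 30 min libraries brought 1 of the 50 genes past the threshold, Pgd, whose input was uneven. In that setting 328 of the 9529 tested genes passed early and 143 at 16 h, against 122 and 48 with all libraries. Without the 30 min libraries the density change of Pgd was -0.58 early (adjusted p = 0.00047) and -0.60 at 16 h (adjusted p = 0.0096). With all libraries the ratio of footprints to input for Pgd was 8.97, 8.39, 5.997, 8.68, 8.43, 6.98 and 5.57 over 0 to 90 min and 5.62 at 16 h. The 30 and 90 min libraries and the 16 h library had the lowest ratios. Deposited input counts of Pgd behind these ratios were 660, 787, 1110, 745, 704, 828 and 1015 over 0 to 90 min and 792 at 16 h.

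Averaged over the 8 times, most of these messages carried more footprints for their input than the typical gene. The density level was above 0 on the log2 scale for 41 and below for 5 of the 50 genes past the threshold, where 85% of all tested genes passed, 43.6% above and 41.5% below. The median was 0.63 for glycolysis, 0.58 for the pentose phosphate pathway and 0.45 for the TCA group, and 0.023 for all tested genes. Input reads cover the whole message and footprints mainly its coding part. Over 9135 genes the Spearman correlation of the density level with the coding share of the annotated transcript was weak and negative (-0.191, a description across genes). The median coding share was 58.6% for the members and 54.6% for all. No source used here says which part of a message was counted, and what part the coding share plays in the members' level was not tested.

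**Figure D5:**
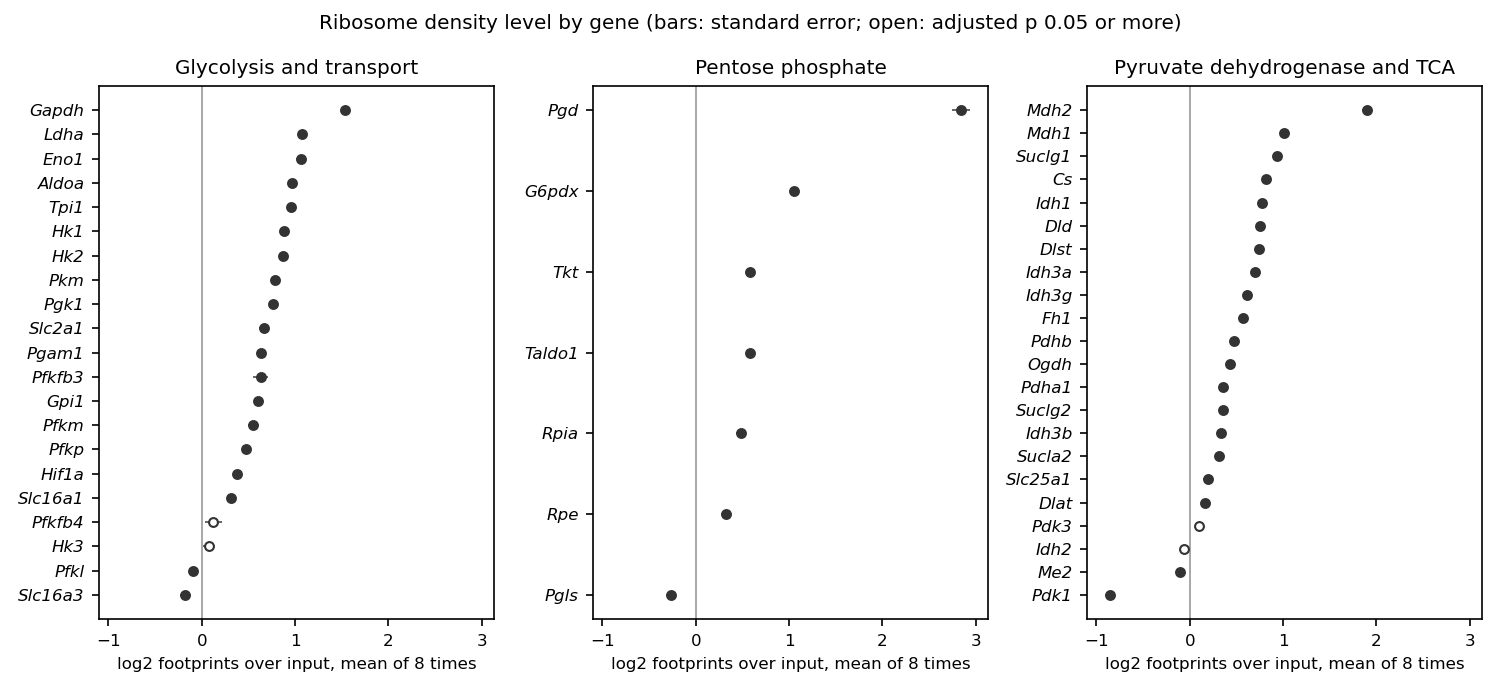
Log2 ratio of footprints to input, the mean of the 8 times relative to the typical gene (horizontal axis), for the 50 tested genes by pathway, with bars for the standard error and open symbols for an adjusted p of 0.05 or more. Pgd at 2.84, Mdh2 at 1.90 and Gapdh at 1.54 lie farthest right, and Pdk1 at -0.86 farthest left.

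Pgd had the highest level of the 50, 2.84 ± 0.097 (adjusted p = 2.5e-10), which ranked 12 among the 9529 tested genes. Mdh2 followed with 1.898 ± 0.047 (adjusted p = 1.9e-19), with ratios of 4.32, 3.95, 3.47, 3.996, 3.84, 3.78 and 3.25 over 0 to 90 min and 3.36 at 16 h. Gapdh was highest in glycolysis with 1.54 ± 0.041 (adjusted p = 5.9e-19), its ratios being 2.89, 2.76, 2.702, 3.06, 3.09, 3.15 and 2.75 over 0 to 90 min and 2.86 at 16 h, and its windows are shared as given above. These 3 genes kept high ratios in all 8 pairs of libraries.

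At the low end, Pdk1 had a level of -0.86 ± 0.050 (adjusted p = 3.3e-13), with ratios of 0.57, 0.51, 0.597, 0.58, 0.51, 0.498 and 0.53 over 0 to 90 min and 0.66 at 16 h. Pgls had the lowest level of the pentose phosphate genes, -0.27 ± 0.054 (adjusted p = 9.3e-05), with ratios of 0.69, 0.79, 0.86, 0.87, 0.83, 0.98 and 0.81 over 0 to 90 min and 0.87 at 16 h. Slc16a3 was lowest in glycolysis and transport, -0.18 ± 0.058 (adjusted p = 0.0094), with ratios of 0.87, 1.03, 0.71, 0.92, 0.94, 0.95 and 0.71 over 0 to 90 min and 1.02 at 16 h. All 8 ratios of Pdk1 and of Pgls lay below 1, and those of Slc16a3 lay on both sides of it. Pfkl and Me2 were the other 2 genes called below the typical gene, at -0.095 ± 0.037 for Pfkl and -0.10 ± 0.036 for Me2, and Idh2, Hk3, Pfkfb4 and Pdk3 passed in neither direction.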

How the data were processed

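RAW264.7 cells were sampled at 8 times, with 1 input and 1 footprint library each. The authors deposited whole-number read counts per gene; a second set of columns, a normalised signal that the authors deposited per the file headers, equals count over 1 factor per library to within 5.2e-15 and was not tested. Bowtie 0.12.8, DESeq2 1.18.1 and mm10 are named in the submitters' processing notes; no source used here gives read counting, strand, multiple matches or duplicates. Library totals agree within 2 counts, as if reads had been drawn to a fixed number.

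Counts were scaled by TMM and fitted with edgeR 4.0.16 in R 4.3.3 (glmQLFit and glmQLFTest, robust), adjusted by Benjamini-Hochberg over 9529 genes, threshold 0.05. Footprints and input each had linear and quadratic terms in minutes and a 16 h term, with both time terms tested together for the early change; density used all 16 libraries with the time point as block and interactions with material; residual degrees of freedom were 4 for changes and 7 for levels. The lone 16 h library is assumed to vary like the others. Counting intervals are at 95% and cover counting error only. The tests were tested on simulated data with 9529 genes, of which 100 were changed by 0.5 and 100 by 1 on the log2 scale. Of those changed by 0.5, 52% were recovered in input early, 41% in input at 16 h, 45% in footprints early and 39% in footprints at 16 h. In the data a far larger share of genes was called in these input and footprint comparisons, so the rates need not hold there. Alternatives were DESeq2 1.42.0, other scalings, no filter, other time curves and leaving out each time.

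Gene symbols are those of the deposited table; coding lengths come from GENCODE M21 and promoters and gene coordinates from RefSeq (GRCm38.p6), where 49 of 51 members had a promoter. Genes named with values in every library were a fixed set of anchors, the 3 most changed called genes of each pathway and comparison, and the highest and lowest density levels; Hk1, Pgk1 and Acod1 were added after their values were seen. The members and lists were chosen with earlier results of these data known.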

Additional observations from a re-analysis of the deposited data

How the results depend on the processing

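With total-count scaling the early changes numbered 15 in input and 27 in footprints, against 8 and 7 as reported, and DESeq2 called 4 in input early. Over all tested genes the early calls with total-count scaling were 2998 in input and 3541 in footprints, against 2579 and 2077 as reported. DESeq2 called 1677 of all genes in input early. Leaving out 1 time point gave 5 to 14 early calls in input, 4 to 9 in footprints, and 0 to 1 in density both early and at 16 h. The 14 came without the 30 min library, and the 1 in density was Pgd. Over all 9529 tested genes, leaving out 1 time point gave 1694 to 2958 early calls in input and 1395 to 2540 in footprints. In density it gave 5 to 328 early and 26 to 144 at 16 h. The 2958, 2540 and 328 also came without the 30 min library. The early input change of Idh3a turned to -0.1369 with total-count scaling, -0.1155 with the square root of time and ran from -0.0835 (without the 90 min library) to 0.2184 (without the untreated one) when 1 library was left out; the early footprint change of Hk2 ran from -0.222 (without the untreated library) to 0.5627. Values without the untreated library start from the fitted value at 15 min of LPS and not from 0 min. The causes were not tested. Of 1081 recomputed values of called genes, 1003 kept direction and call, 74 lost the call and 4 turned. With 1 library a group and equal totals, depth cannot be judged, and 4 residual degrees of freedom limit what the change tests can detect. No paired analysis was possible for the changes within footprints or within input because each time has 1 library per material. The density model pairs the 2 libraries of a time through the time point block, and without that block 0 of the 50 genes were again called in either density change.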
